A study of Mus musculus with 6 samples.

Results

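The 10 genes described here belong to neuropilin, semaphorin 3A and VEGF signaling and were measured in whole tibias of mice lacking *Atrx* in the osteoblast lineage, out of the 55401 genes in each count table. They are the co-receptors *Nrp1* and *Nrp2*, the ligands *Sema3a* and *Vegfa*, the plexins *Plxna1*, *Plxna2* and *Plxna4*, and the VEGF receptor genes *Kdr*, *Flt1* and *Flt4*. All 10 were found by symbol, 1 identifier each, and all 10 passed the expression filter. The members were chosen by pathway with the genotype differences of these same libraries, that of *Nrp1* among them, already known. The differences between genotypes below are therefore descriptions. Counts of members past a threshold are printed beside the share of all genes past it and support nothing about the members.

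Neuropilins are single-pass membrane proteins that serve as shared co-receptors of 2 signaling systems. Semaphorin 3A, a secreted guidance cue, binds neuropilin 1 and signals through class A plexins. VEGF-A binds the receptor tyrosine kinases VEGFR2 (*Kdr*) and VEGFR1 (*Flt1*), and neuropilin 1 increases signaling through VEGFR2. In bone, semaphorin 3A from osteoblasts and nerves is known to restrain osteoclast formation and favor bone formation, and VEGF-A from osteoblasts and hypertrophic chondrocytes drives vessel growth.

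The Atrx-cKO group was 3 tibia samples of the male genotype *Osterix-Cre; Atrxf/y*, and the control group was 3 samples of *Atrxf/y* without Cre, from mice 8 weeks old. The labels number the samples of a group but do not say that each came from its own mouse, so p-values and SDs measure the spread between these samples. Both groups carried the floxed *Atrx* allele, and the study kept its mice on doxycycline until 3 weeks of age to hold the Tet-off *Osterix-Cre* transgene silent. The transgene is driven by the promoter of *Osterix* (*Sp7*), a gene of osteoblast progenitors. None of the 6 libraries carried the transgene beside intact *Atrx*, so the effects of Cre and of *Atrx* loss cannot be told apart here. Each library was polyadenylated RNA of whole tibia, with 50977777 to 70571655 counts on genes. *Atrx* was at 152.7 to 171.1 CPM (TMM-normalized counts scaled to library size) in Atrx-cKO and 165.4 to 174.5 CPM in control libraries, a whole-gene count over all cells of the bone that does not check the deletion. The tibias held RNA of bone, cartilage, marrow, vessels and muscle, and fewer cells of a type cannot be told apart from less RNA per cell. Of 17 cell type marker lists, the summed level overlapped between genotypes in all 17. Control replicate 3 stood apart in summed skeletal muscle markers (12 genes, 11810 CPM summed, against 717 to 2473 in the other 5 libraries). *Myh4* gave 4630 CPM of this sum and *Acta1* 2003 CPM, so it does not speak for the whole list. *Mb*, *Myh1* and *Myh2* were lower in control replicate 3 than in control replicates 1 and 2 and Atrx-cKO replicate 1. Control replicates 2 and 3 stood apart in summed osteoblast markers (188600 and 170200 CPM summed over 10 genes, against 111600 to 122100 in the other 4). Most of this was *Col1a1* (92520 and 82630 CPM) and *Col1a2* (84670 and 76370 CPM). By gene, *Spp1* and *Dmp1* in control replicate 2 and *Bglap2* in control replicate 3 lay below Atrx-cKO replicate 3. Control replicates 2 and 3 also stood apart in summed chondrocyte markers (7384 and 6495 CPM over 12 genes, against 3707 to 4157). *Col11a1* alone gave 5784 and 4875 CPM of these 2 sums, so they do not speak for the whole list. Of 11 tested chondrocyte markers, 4 had a log2 fold change below 0, and the median was 0.19. The 10 members had 891 to 64864 counts per library, so counting error was at most 3.35% of a value.

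The sequences upstream of *Nrp1* and *Nrp2*, the 2 neuropilins whose values ran in opposite directions, and of *Kdr* and *Flt1*, whose ratio had nearly the same mean in both genotypes, are shown for reference. Each is the stretch from 250 to 33 bases before the RefSeq start of the gene on GRCm38.p6, 5′ to 3′ on the strand of the gene. *Nrp1* is at chr8:128358823-128359040 (plus strand), *Nrp2* at chr1:62703067-62703284 (plus), *Kdr* at chr5:75978488-75978705 (minus) and *Flt1* at chr5:147726044-147726261 (minus). Capitals mark a GC box (GGGCGG), an ETS-type core (GGAAGT) or a cyclic AMP response element (TGACGTCA), on either strand. The *Nrp1* window lies within the span that GENCODE M21 gives the gene, and the other 3 lie outside theirs.
Nrp1: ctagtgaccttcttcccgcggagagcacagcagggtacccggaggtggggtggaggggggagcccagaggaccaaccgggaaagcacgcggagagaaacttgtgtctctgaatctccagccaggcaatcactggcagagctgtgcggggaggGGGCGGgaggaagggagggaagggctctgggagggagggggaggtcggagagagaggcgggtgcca
Nrp2: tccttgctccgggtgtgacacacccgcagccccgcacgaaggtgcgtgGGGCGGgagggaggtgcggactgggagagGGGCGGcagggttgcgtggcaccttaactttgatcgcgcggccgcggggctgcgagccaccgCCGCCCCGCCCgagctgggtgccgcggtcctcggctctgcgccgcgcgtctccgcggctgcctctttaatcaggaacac
Kdr: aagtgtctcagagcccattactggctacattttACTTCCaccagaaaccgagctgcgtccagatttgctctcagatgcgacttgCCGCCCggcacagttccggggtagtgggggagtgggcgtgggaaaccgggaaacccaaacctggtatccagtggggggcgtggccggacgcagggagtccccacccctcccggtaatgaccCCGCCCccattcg
Flt1: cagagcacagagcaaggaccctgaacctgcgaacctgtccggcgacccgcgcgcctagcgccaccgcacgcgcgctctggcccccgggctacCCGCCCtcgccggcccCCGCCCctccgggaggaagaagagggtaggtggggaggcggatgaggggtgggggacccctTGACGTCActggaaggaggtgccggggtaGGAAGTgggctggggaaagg

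*Nrp1* held 1 GC box and *Nrp2* held 4, of which a pair overlaps by 1 base. *Kdr* and *Flt1* each held 2 GC boxes and 1 ETS-type core, and *Flt1* held the only cyclic AMP response element. Over 32851 promoter windows cut to the same 218 bases, 28.2% held a GC box, 16.3% the ETS-type core and 1.13% the cyclic AMP response element. G and C made up 66.1% of the bases of *Nrp1*, 72.5% of *Nrp2*, 61.9% of *Kdr* and 72.0% of *Flt1*. Matches are letters in these windows and show no binding. RefSeq windows were found for 8 of the 10 members, and *Plxna1* and *Plxna4* are named only.

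*Nrp1* (ENSMUSG00000025810, chromosome 8 from 128358604 to 128503363 of GRCm38, plus strand), the co-receptor of semaphorin 3A and VEGF-A, had 115, 133 and 124 CPM in Atrx-cKO replicates 1, 2 and 3. It had 78.8, 86.7 and 78.1 CPM in control replicates 1, 2 and 3. All 3 Atrx-cKO libraries lay above all 3 controls, with a gap between the groups wider than the range within either. The means were 124 ± 8.93 CPM in Atrx-cKO against 81.2 ± 4.81 CPM in control (SD, n = 3 each), 153% of the control level, and the log2 fold change was 0.61 ± 0.086 (SE). Control replicate 1, which resembled the Atrx-cKO libraries in its summed osteoblast and chondrocyte markers, sat with the other controls for *Nrp1*. The part of these cell types in the level of *Nrp1* was not tested. Leaving out each library in turn gave log2 fold changes from 0.55 to 0.66, and a covariate for skeletal muscle markers gave 0.59.

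**Figure D1:**
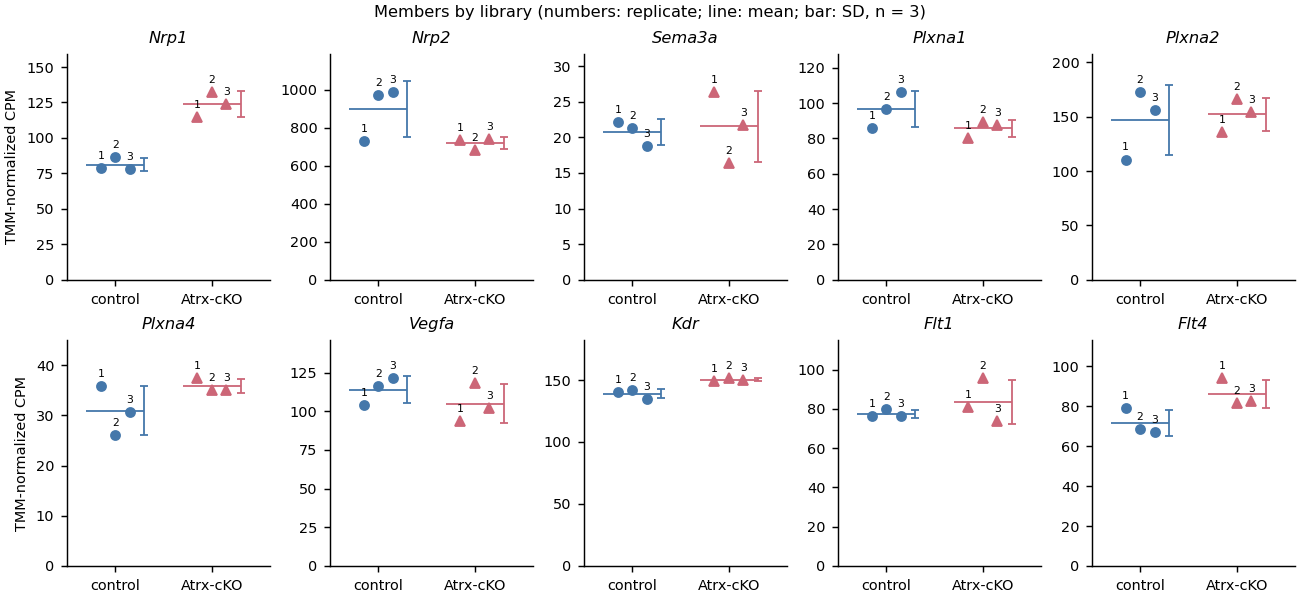
TMM-normalized CPM of the 10 members in each library (vertical axes from 0), with controls as circles and Atrx-cKO as triangles, the replicate number beside each point, the group mean as a line and the SD (n = 3) as a bar. The groups do not overlap for *Nrp1* (78.1 to 86.7 against 115 to 133 CPM), *Kdr* and *Flt4*, and overlap for the other 7 members.

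*Nrp2* (ENSMUSG00000025969, chromosome 1 from 62703285 to 62818695, plus strand), the neuropilin that binds semaphorin 3F and VEGF-C, had 735, 680.5 and 742 CPM in Atrx-cKO and 729.5, 974 and 989 CPM in control replicates 1, 2 and 3. The groups overlapped, because control replicate 1 was within the Atrx-cKO range while control replicates 2 and 3 were above it. The means were 719 ± 33.6 CPM in Atrx-cKO against 897.5 ± 145.7 CPM in control (SD, n = 3 each), with a log2 fold change of -0.32 ± 0.13 (SE). The same 2 control libraries held the highest summed osteoblast and chondrocyte markers. The osteoblast sum was mostly *Col1a1* and *Col1a2*, and the chondrocyte sum mostly *Col11a1*. As percentages of the mean of the 6 libraries, *Nrp2* was at 120% and 122% in control replicates 2 and 3, osteoblast markers at 137% and 123%, and chondrocyte markers at 150% and 132%. In the other 4 libraries *Nrp2* was at 84.2% to 91.8%, osteoblast markers at 80.8% to 88.4% and chondrocyte markers at 75.3% to 84.5%. The part of these cell types in the level of *Nrp2* was not tested.

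**Figure D2:**
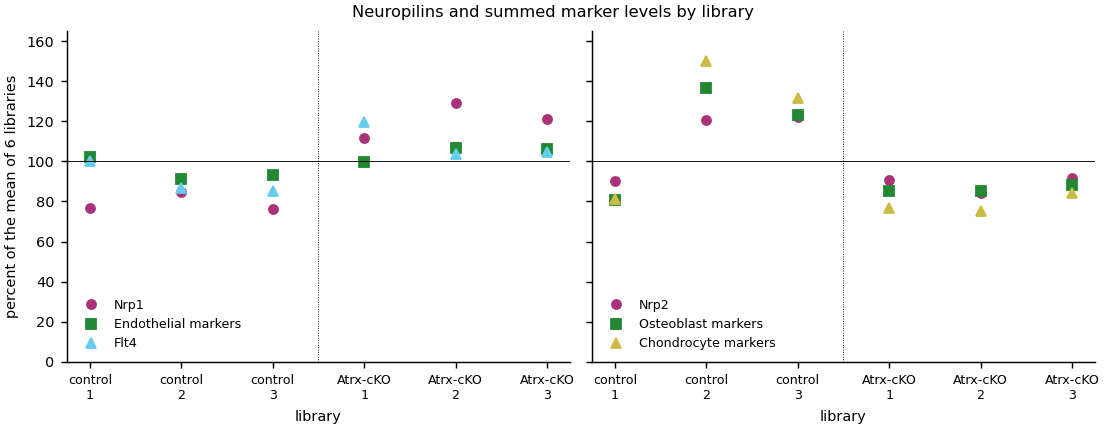
*Nrp1*, *Flt4* and the summed endothelial markers (left), and *Nrp2* with the summed osteoblast and chondrocyte markers (right), each as a percentage of its mean over the 6 libraries (vertical axis), by library (horizontal axis, controls left of the dotted line). *Nrp1* runs from 76.2% to 84.6% in controls and from 112% to 129% in Atrx-cKO, while *Nrp2* is above its mean in control replicates 2 and 3 alone, where both marker sums are highest.

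The ratio of *Nrp1* to *Nrp2*, on the RPKM scale (CPM per kilobase of merged exons), was 0.189, 0.236 and 0.203 in Atrx-cKO and 0.131, 0.108 and 0.0955 in control replicates 1, 2 and 3. The mean ratio was 0.209 ± 0.0241 in Atrx-cKO against 0.111 ± 0.0178 in control (SD, n = 3 each). The groups did not overlap in this ratio, to which both genes contributed.

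*Sema3a* (ENSMUSG00000028883, chromosome 5 from 13125414 to 13602565, plus strand), the secreted ligand of neuropilin 1, had 26.4, 16.5 and 21.8 CPM in Atrx-cKO and 22.1, 21.35 and 18.7 CPM in control replicates 1, 2 and 3. The Atrx-cKO libraries enclosed the control range on both sides. The means were 21.5 ± 4.98 CPM (SD, n = 3) and 20.7 ± 1.785 CPM (SD, n = 3), with a log2 fold change of 0.055 ± 0.17 (SE) that turned to -0.12 without Atrx-cKO replicate 1 and to -0.027 without control replicate 3. *Sema3a* was close to its control mean while *Nrp1*, its receptor, was at 153% of control.

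The class A plexins are the signaling partners of neuropilins for class 3 semaphorins. *Plxna1* (ENSMUSG00000030084, chromosome 6 from 89316314 to 89362620, minus strand) had 80.1, 89.5 and 87.4 CPM in Atrx-cKO and 86.0, 96.8 and 106 CPM in control replicates 1, 2 and 3. The groups overlapped, and the log2 fold change was -0.17 ± 0.097 (SE), running from -0.245 without control replicate 1 to -0.11 without control replicate 3. The antisense gene *Gm26811* covers 10.7% of the exonic bases of *Plxna1*, and whether the counting used the strand of these strand-specific libraries is not given in the sources used here. *Plxna2* (ENSMUSG00000026640, chromosome 1 from 194618218 to 194816869, plus strand) had 136, 166 and 154 CPM in Atrx-cKO and 111, 173 and 156 CPM in control. Its control libraries spanned a wider range than the Atrx-cKO libraries, and the log2 fold change was 0.053 ± 0.17 (SE). *Plxna4* (ENSMUSG00000029765, chromosome 6 from 32144268 to 32588192, minus strand) had 37.5, 35.1 and 35.1 CPM in Atrx-cKO and 35.9, 26.15 and 30.7 CPM in control, a log2 fold change of 0.22 ± 0.12 (SE) with overlapping groups. For *Plxna2* the log2 fold change turned to -0.11 without control replicate 1 and to -0.024 without Atrx-cKO replicate 2. For *Plxna4* it ran from 0.11 without control replicate 2 to 0.34 without control replicate 1.

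*Vegfa* (ENSMUSG00000023951, chromosome 17 from 46016993 to 46032369, minus strand), the principal ligand of vessel growth, had 93.9, 119 and 102 CPM in Atrx-cKO and 104, 116 and 122 CPM in control replicates 1, 2 and 3. The groups overlapped, with means of 105 ± 12.5 CPM (SD, n = 3) and 114 ± 8.89 CPM (SD, n = 3) and a log2 fold change of -0.12 ± 0.11 (SE). It was -0.047 without Atrx-cKO replicate 1 and -0.23 without Atrx-cKO replicate 2. The count sums the 13 annotated transcripts of *Vegfa*, so the isoforms that do and do not bind neuropilins were not separated.

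*Kdr* (ENSMUSG00000062960, chromosome 5 from 75932827 to 75978458, minus strand), which encodes the main signaling receptor of VEGF-A in endothelium, varied least of the 10 members over the 6 libraries (coefficient of variation 4.62%, against 23.6% for *Nrp1*). It had 149, 152 and 150 CPM in Atrx-cKO and 140, 142 and 135 CPM in control replicates 1, 2 and 3. The groups did not overlap but lay close together, with a log2 fold change of 0.11 ± 0.070 (SE). *Flt1* (ENSMUSG00000029648, chromosome 5 from 147561604 to 147726011, minus strand), whose product binds VEGF-A tightly and can act as a decoy, had 81.0, 95.85 and 73.9 CPM in Atrx-cKO and 76.2, 79.9 and 76.3 CPM in control. The Atrx-cKO libraries enclosed the control range, with a log2 fold change of 0.11 ± 0.10 (SE), and it turned to -0.0096 without Atrx-cKO replicate 2. Soluble and membrane forms were counted together. *Flt4* (ENSMUSG00000020357, chromosome 11 from 49609263 to 49652739, plus strand), which encodes the VEGF-C receptor of lymphatic vessels and marrow sinusoids, had 94.2, 81.65 and 82.4 CPM in Atrx-cKO and 78.95, 68.5 and 67.2 CPM in control. All 3 Atrx-cKO libraries lay above all 3 controls, with a log2 fold change of 0.27 ± 0.096 (SE).

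The VEGF receptor genes are read here beside markers of the vessels that express them, whose part in the values was not tested. The 13 endothelial markers, among them *Pecam1* and *Cdh5*, summed to 1047 to 1122 CPM in Atrx-cKO and 960 to 1075 CPM in control, and none was at 0. All 13 had a log2 fold change above 0, with a median of 0.11, while 48.8% of all tested genes were below 0. That was not particular to endothelium. The sinusoidal, neutrophil, erythroid, B cell and megakaryocyte markers also all lay above 0. All 10 osteoblast and all 8 osteoclast markers lay below 0, and the other marker lists were mixed. In 2 of the 13 endothelial markers the groups did not overlap, with Atrx-cKO higher, beside 4.30% of all tested genes. Sinusoidal markers summed to 715 to 786 CPM in Atrx-cKO and 617.5 to 724.2 CPM in control over 5 genes. The highest sum, in Atrx-cKO replicate 1, held *Lrg1* at 196 CPM, against 59.3 to 82.4 CPM in the other libraries. That library also had the highest neutrophil marker sum (12750 CPM, against 7379 to 10580 CPM). Which cells gave the *Lrg1* counts was not tested. Summed arterial markers ran the other way in their mean, with 453 to 466 CPM in Atrx-cKO inside the control range of 404 to 523 CPM over 6 genes. *Unc5b* made up most of these sums, averaging 367 CPM in Atrx-cKO and 385 CPM in control. By gene the arterial list showed no common direction, with 3 of 6 below 0 and a median log2 fold change of 0.0097. The 6 lymphatic markers summed to 107 to 129 CPM in Atrx-cKO and 102 to 133 CPM in control, and their directions were mixed. *Mmrn1* made up most of these sums, averaging 90.4 CPM in Atrx-cKO and 75.5 CPM in control, so they do not speak for the whole list. Which cells gave the *Mmrn1* counts was not tested. *Ccl21a* was at 0 in every library, *Lyve1* averaged 1.685 CPM in Atrx-cKO and 1.36 CPM in control, and *Prox1* 0.626 and 0.392 CPM. *Pdpn*, which osteocytes also express, averaged 21.4 and 33.6 CPM, the 1 lymphatic marker with an unadjusted p under 0.05 in edgeR, and *Reln* 2.73 and 3.40 CPM.

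Per 100 CPM of endothelial markers, *Kdr* was at 14.25, 13.5 and 13.5 CPM in Atrx-cKO and 13.04, 14.8 and 13.7 CPM in control replicates 1, 2 and 3, so the groups overlapped on this scale. *Flt1* was at 7.73, 8.54 and 6.645 CPM in Atrx-cKO and 7.09, 8.32 and 7.78 CPM in control. *Flt4* was at 8.998, 7.275 and 7.405 CPM in Atrx-cKO and 7.35, 7.13 and 6.85 CPM in control, also overlapping. *Nrp1* was at 10.96, 11.8 and 11.2 CPM in Atrx-cKO and 7.33, 9.03 and 7.96 CPM in control, and its groups stayed apart. The mean for *Nrp1* was 11.3 ± 0.447 in Atrx-cKO against 8.11 ± 0.862 in control (SD, n = 3 each). *Plxna1*, which overlapped in CPM, was at 7.65, 7.98 and 7.855 in Atrx-cKO and 8.001, 10.1 and 10.85 in control on the same scale, the Atrx-cKO libraries just below the lowest control. The ratio of *Flt1* to *Kdr* on the RPKM scale was 0.372 ± 0.0466 in Atrx-cKO against 0.373 ± 0.00812 in control (SD, n = 3 each).

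**Figure D3:**
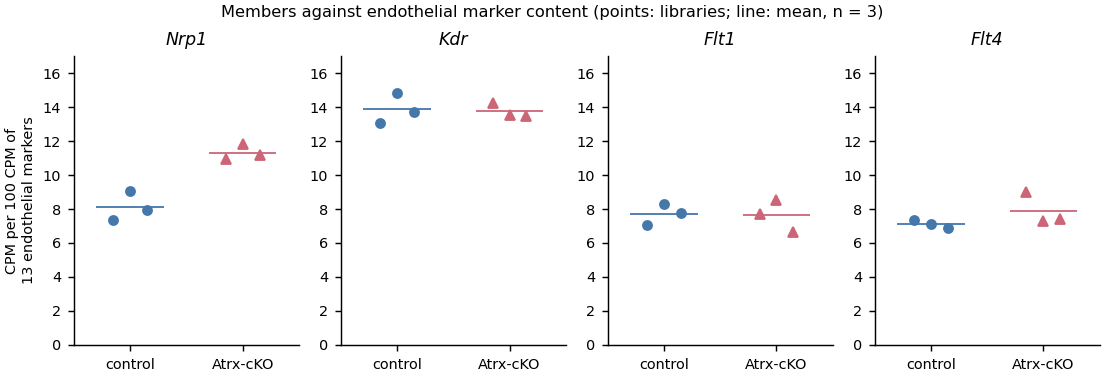
CPM of *Nrp1*, *Kdr*, *Flt1* and *Flt4* per 100 CPM of the 13 endothelial markers (vertical axis from 0) in each library, with controls as circles, Atrx-cKO as triangles and the group mean (n = 3) as a line. *Kdr*, *Flt1* and *Flt4* overlap between genotypes on this scale, and *Nrp1* does not (7.33 to 9.03 against 10.96 to 11.8).

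By level per length in the control tibias, *Nrp2* stood first at 75.8 ± 12.3 RPKM (SD, n = 3), above *Vegfa* at 26.6 ± 2.07 RPKM and *Kdr* at 15.4 ± 0.434 RPKM. *Plxna1* (10.65 ± 1.13 RPKM), *Flt4* (8.69 ± 0.782), *Plxna2* (8.54 ± 1.88) and *Nrp1* (8.30 ± 0.491) followed, each with a control range that overlapped the next. *Flt1* was at 5.74 ± 0.156 RPKM, *Plxna4* at 2.19 ± 0.346 RPKM and *Sema3a* at 1.495 ± 0.129 RPKM. Apart from the 3 overlaps among *Plxna1*, *Flt4*, *Plxna2* and *Nrp1*, neighbors in this order did not overlap. In Atrx-cKO the order was the same except that *Nrp1*, at 12.7 ± 0.913 RPKM (SD, n = 3), stood 4th, *Flt4* 5th, *Plxna1* 6th and *Plxna2* 7th.

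**Figure D4:**
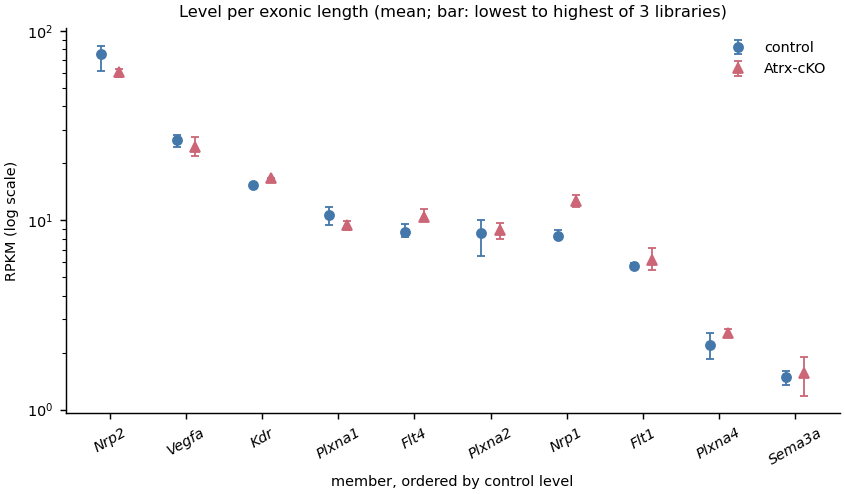
Mean RPKM of the members (vertical axis, log scale), ordered from left to right by control level, with bars from the lowest to the highest of 3 libraries, controls as circles and Atrx-cKO as triangles. *Nrp2* is highest and *Sema3a* lowest in both genotypes, and *Nrp1* moves from 7th in control to 4th in Atrx-cKO.

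Against the whole table, 0 of the 10 members were called in edgeR's quasi-likelihood test, while 0.0145% of 20636 tested genes were. A call needed an absolute log2 fold change of at least 1 besides an adjusted p under 0.05. In DESeq2 the members also numbered 0, beside 0.0961% of 23938 genes. With no limit on fold change, DESeq2 placed 1 member, *Nrp1*, under 0.05, beside 0.155% of genes, and edgeR placed none there. At an unadjusted p under 0.05 in edgeR, 2 members were higher in Atrx-cKO (*Nrp1* and *Flt4*), beside 1.59% of all genes, and 1 was lower (*Nrp2*), beside 2.05%. The groups did not overlap, with Atrx-cKO higher, in 3 members (*Nrp1*, *Kdr* and *Flt4*), beside 4.30% of all genes, and with Atrx-cKO lower in 0, beside 4.01%. Since the members were chosen on this comparison, these counts are not evidence about them. The 3 members stayed apart under TMM, RLE and library size scaling alike. The median log2 fold change was 0.083 over the 10 members and 0.0050 over all tested genes.

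Among the other genes of these pathways, 82 genes in 8 groups were tested and 0 were called by edgeR, with 0 under an adjusted p of 0.05 in DESeq2. At an unadjusted p under 0.05, 3 of the 82 were higher and 8 lower in Atrx-cKO, beside 1.59% and 2.05% of all tested genes, the shares against which the counts of each group below are to be read. The groups did not overlap with Atrx-cKO higher in 3 and lower in 5 of the 82, beside 4.30% and 4.01%. Their median log2 fold change was -0.064.

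Of the other 6 class 3 semaphorins, 1 was higher and 2 lower at an unadjusted p under 0.05, with a median log2 fold change of -0.52. With *Sema3a* included the median was -0.28, and it was -0.49, -0.11 and -0.074 without control replicates 1, 2 and 3 in turn. *Sema3d*, the most abundant of them, had 105, 145 and 181 CPM in Atrx-cKO and 161, 306 and 264 CPM in control replicates 1, 2 and 3, -0.76 ± 0.27 (SE) on the log2 scale with an adjusted p of 0.992 in edgeR. As for *Nrp2*, control replicates 2 and 3 were highest. *Sema3e*, the ligand of plexin D1, averaged 1.86 ± 0.499 CPM in Atrx-cKO against 3.22 ± 0.682 CPM in control (SD, n = 3 each), and *Sema3f*, a ligand of neuropilin 2, 29.4 ± 3.11 and 24.3 ± 1.45 CPM. *Sema3b* (-0.28) and *Sema3g* (0.098) had overlapping groups.

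The other plexins lay between log2 fold changes of -0.15 (*Plxnb1*, the receptor of semaphorin 4D) and 0.20, and 0 of the 6 had an unadjusted p under 0.05. *Plxnd1*, a plexin of endothelium, was at 265 ± 18.9 CPM in Atrx-cKO against 279 ± 10.7 CPM in control (SD, n = 3 each), and *Plxnb2* at 202 ± 7.44 and 202 ± 14.7 CPM. Of 13 transmembrane and anchored semaphorins, 1 was lower at an unadjusted p under 0.05, *Sema4g*, with 6.80 ± 1.46 CPM in Atrx-cKO against 9.61 ± 1.83 CPM in control (SD, n = 3 each). *Sema4d*, an osteoclast product that restrains osteoblasts, had a log2 fold change of -0.20 ± 0.097 (SE), *Sema6d* of -0.066 and *Sema7a* of 0.052. Of 18 signal transducers of semaphorins, 3 were lower, the kinase gene *Fyn* (log2 fold change -0.37), the oxidoreductase gene *Mical1* (-0.19) and *Dpysl5*, which was at 0.0342 to 0.672 CPM throughout. *Rac1*, a small GTPase, was at 0.040 and *Dpysl3* at -0.16.

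Of the 4 VEGF ligand genes other than *Vegfa*, *Vegfc*, the ligand of the *Flt4* product, had 32.2, 34.6 and 35.6 CPM in Atrx-cKO and 27.2, 23.4 and 24.6 CPM in control replicates 1, 2 and 3. The groups did not overlap, and the log2 fold change was 0.45 ± 0.092 (SE), with an unadjusted p of 0.00149 in edgeR and adjusted p-values of 0.992 in edgeR and 0.116 in DESeq2. *Vegfb* was at -0.028 and *Pgf*, a ligand of the *Flt1* product, at 0.26 on the log2 scale, both overlapping. Of 15 downstream genes of VEGF receptors, 1 was higher at an unadjusted p under 0.05, *Angpt2*, an antagonist of the endothelial receptor Tie2, with 17.8 ± 0.562 CPM in Atrx-cKO against 14.4 ± 0.165 CPM in control (SD, n = 3 each). *Esm1*, a gene of endothelial tip cells, was at 0.25 with overlapping groups, *Ptpn6* at 0.060 and *Gipc1*, which binds the neuropilin 1 tail, at -0.042.

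Hypoxia acts on this pathway through HIF transcription factors, which activate *Vegfa* and *Flt1*. Of 8 genes of oxygen sensing, 1 was lower at an unadjusted p under 0.05, *Egln1*, a HIF prolyl hydroxylase, with 49.8 ± 2.60 CPM in Atrx-cKO against 60.7 ± 10.3 CPM in control (SD, n = 3 each). The log2 fold change was 0.021 for *Hif1a*, 0.20 for *Epas1* and -0.041 for *Egln2*. Of 12 hypoxia target genes, 1 was lower, *Adm*, with 3.85 ± 0.873 CPM in Atrx-cKO against 6.08 ± 0.870 CPM in control (SD, n = 3 each). The glycolysis genes *Aldoa*, *Ldha* and *Pgk1* were at -0.72, -0.097 and 0.0098. *Aldoa* had 1519 CPM in control replicate 3, the library with the highest summed skeletal muscle markers, and 338 to 658 CPM in the other 5.

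**Figure D5:**
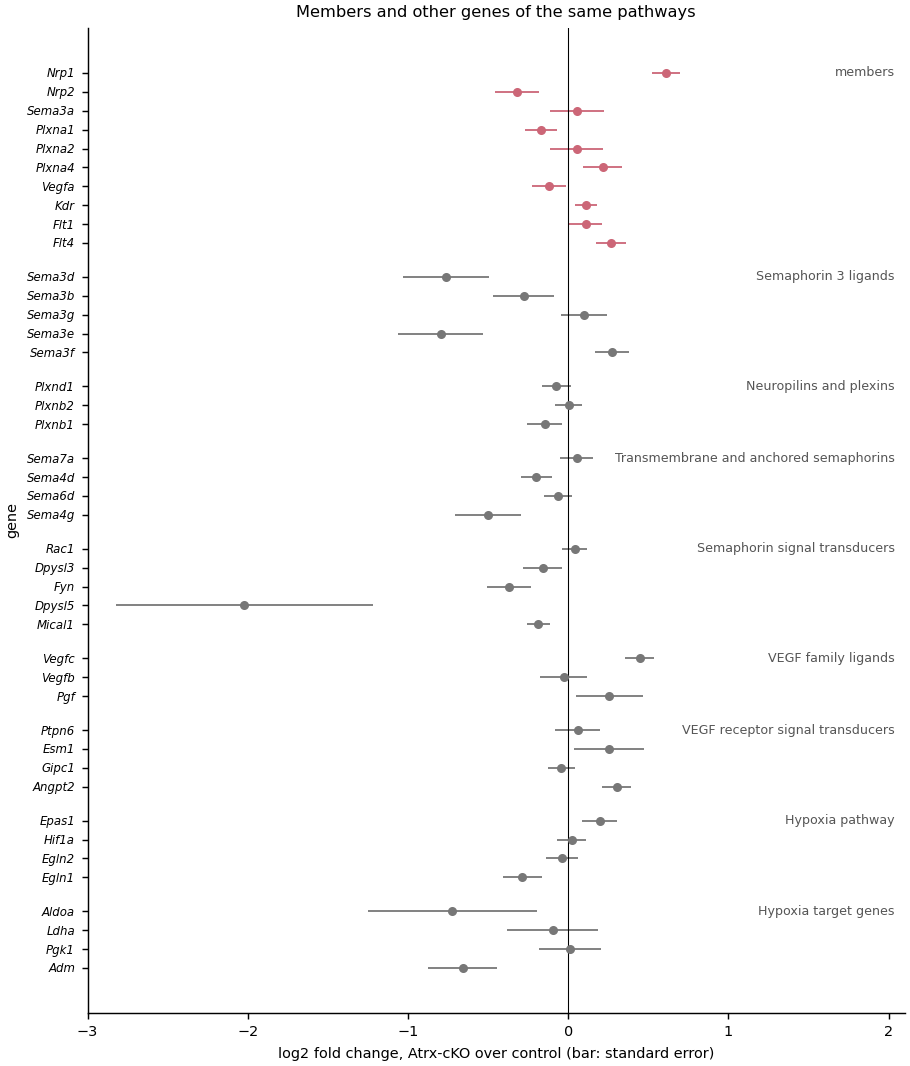
Log2 fold change of Atrx-cKO over control (horizontal axis) with its standard error as a bar, for the 10 members (red) and the named genes of 8 other groups (grey, group names at the right). *Nrp1*, at 0.61, is furthest above 0, followed by *Vegfc* at 0.45, and *Dpysl5*, at -2.02 and with very low counts, is furthest below 0 with the widest bar.

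The genes whose pattern over the 6 libraries was most like that of *Nrp1* were *Gm8369*, *1190007I07Rik*, *Slc29a3*, *Fkbpl* and *H2-Q6*, by the root mean square difference of centered log2 levels among 16170 genes of at least 1 CPM. The difference was 0.079 for *Gm8369* and 0.10 for *H2-Q6*, and the log2 fold changes of the 5 ran from 0.53 to 0.79. *Slc29a3*, a lysosomal nucleoside transporter, averaged 63.9 CPM and *H2-Q6* 82.5 CPM. The others were low, with *Gm8369* at 2.485, *1190007I07Rik* at 3 and *Fkbpl* at 4.245 CPM. *H2-Q6* is a class Ib MHC gene with close copies, among which reads may be split. No other member was among the 5. *Flt4* was the nearest member, at 0.23, with 2.61% of genes nearer to *Nrp1*, and *Nrp2* the farthest, at 0.48, with 90.2% nearer.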

How the data were processed

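Tibias were frozen and pulverized, and polyadenylated RNA of each was sequenced with 150-bp paired-end reads from strand-specific libraries. The authors deposited raw counts of reads per Ensembl gene, 1 table per library, with 55401 genes and 5 summary entries. The aligner and counting program are not given in the sources used here, and the submitters' processing notes name GRCm38 and DESeq2. Reads outside any feature were 51.6% to 52.4% of a table and, with the other summary entries, did not enter library sizes. Groups and replicate numbers were taken from the sample titles, and no library was left out. Libraries of 1 genotype differed by more than sampling noise (chi-square per degree of freedom 15.8 to 137).

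Symbols and coordinates come from GENCODE M21 (55141 of 55401 identifiers matched), and promoter sequences are those of RefSeq on GRCm38.p6. Counts were fitted with edgeR 4.0.16 in R 4.3.3 (TMM, filterByExpr defaults, quasi-likelihood test on genotype), which kept 20636 genes, with Benjamini-Hochberg adjustment over all of them. CPM are TMM-normalized, and RPKM divide them by the length of the merged exons. 0.5 CPM was added before log2 in the pattern comparison. A call required an absolute log2 fold change of at least 1 besides an adjusted p under 0.05. DESeq2 1.42.0, other scalings and filters, a replicate block, a muscle covariate and fits without each library were alternatives. With 3 libraries against 3, an exact permutation test of 1 gene cannot go below p = 0.1, and none was run.

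Named genes are the 10 members, the 3 most abundant other genes of each pathway list with any at an unadjusted p under 0.05, and the 5 nearest to *Nrp1*. Genes of the marker lists, *Atrx* and *Gm26811* were named beside results they touch. Members and lists were chosen with earlier results of these data known. Promoter motifs and the genes shown with sequence were chosen after the values and sequences were seen.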

Additional observations from a re-analysis of the deposited data

How the results depend on the processing

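No member was called under any of the 13 alternatives, where none reached the fold change limit (at most 0.68 on the log2 scale, for *Nrp1*). The adjusted p of *Nrp1* did depend on the setting. It was 0.265 in the main edgeR fit, 0.0533 in edgeR without a filter and 0.000154 in DESeq2. In edgeR with 1 library left out it ran from 0.132 to 0.998. Over all genes, 3 genes had an adjusted p under 0.05 in edgeR, and all 3 were called. Without a filter 5 were called, with 10 under 0.05. With at least 10 counts in every library the numbers were 1 and 1, and in DESeq2 23 and 37. With the replicate block both were 0, and the log2 fold change of *Nrp1* was 0.61. Deviations from the group mean correlated at -0.0032, 0.11 and -0.10 between libraries of the same number. Such values cannot decide whether samples of the same number were paired, and the sample titles do not say. Leaving out each library in turn gave 0 to 5 called genes, and 0 to 5 below the adjusted p threshold. The cause of these moves was not tested. The filters change the number of genes tested, and whether that moved the counts was not tested either.

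Of 130 refitted log2 fold changes of members, 128 moved by less than the SD between replicates. The other 2 were those of *Kdr*, at 0.18 with library size scaling and 0.076 without control replicate 3. Library size scaling shifted the median of all genes by 0.072. Leaving out 1 library turned the sign for *Sema3a*, *Plxna2* and *Flt1*. The median of the 7 class 3 semaphorins was -0.28 and ran from -0.49 (without control replicate 1) to -0.074 (without control replicate 3). The members at an unadjusted p under 0.05 numbered 3, and 5 without control replicate 1 but 1 without control replicate 2, control replicate 3 or Atrx-cKO replicate 1. Gene counts in whole bone limit these values to sums over cells and isoforms.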
